A study of Mus musculus with 6 samples.

Results

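The adrenomedullin system was described here through 7 genes of the 23279 that could be named and tested: the peptide genes Adm and Adm2, the receptor gene Calcrl, its accessory proteins Ramp1, Ramp2 and Ramp3, and the scavenging receptor Ackr3. All 7 had a feature on the arrays. They were picked by name, with the result of this comparison already known, so their own differences are given as a description and no p-value is attached to them. Total RNA of whole mouse fetal livers, dissected at embryonic day 11.5, was hybridised to 6 Affymetrix arrays, 3 per group. One group is labelled Stab2Cre;Gata4 knockout (Stab2-Cre with both Gata4 alleles floxed), and the controls are labelled Stab2Cre;Gata4 heterozygous (the same Cre with 1 floxed allele). Both groups thus carry the transgene, and the controls may have lost 1 copy of Gata4 in the cells it targets. The promoter of Stab2, a scavenger receptor of sinusoidal endothelium, drives the Cre, which directs recombination to those cells and not to the whole liver. Gata4 fl/fl mice (B6;129-Gata4tm1.1Sad/J line) had been mated with animals carrying Stab2-Cre and 1 floxed allele. The titles call the replicates biological, but the sources used here do not give the litters or the number of embryos behind an array, so the p-values measure the spread between these arrays.

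Adrenomedullin is a secreted vasoactive peptide that signals through the G protein-coupled receptor encoded by Calcrl. That receptor reaches the cell surface only with a receptor activity-modifying protein, and the partner sets which ligand it prefers: with RAMP1 it is a receptor for calcitonin gene-related peptide, with RAMP2 or RAMP3 one for adrenomedullin. Adm2 (intermedin) is a related peptide that binds these complexes with less selectivity. The receptor raises cAMP in endothelium and tightens vessel junctions, and mouse embryos without Adm, Calcrl or Ramp2 die in midgestation with oedema and vascular defects. ACKR3 (CXCR7) is an atypical receptor that removes the chemokine CXCL12, and adrenomedullin too, without G protein signalling. Adm is a textbook target of the hypoxia-inducible factors, HIFs.

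The sequence just before the start of transcription is shown for Adm, Adm2 and Ackr3, with the core of the hypoxia response element marked. These 3 were chosen for display with their large differences known. No link between the letters and the differences was tested. Each line gives the 250 bases before the start in RefSeq's GRCm38.p6 table, read 5′ to 3′ on the gene's strand. Adm lies at chr7:110627407-110627656, Adm2 at chr15:89322470-89322719 and Ackr3 at chr1:90203730-90203979, all on the plus strand. Capitals mark the letters ACGTG or GCGTG on either strand, so that CACGC is GCGTG read on the other strand.
Adm: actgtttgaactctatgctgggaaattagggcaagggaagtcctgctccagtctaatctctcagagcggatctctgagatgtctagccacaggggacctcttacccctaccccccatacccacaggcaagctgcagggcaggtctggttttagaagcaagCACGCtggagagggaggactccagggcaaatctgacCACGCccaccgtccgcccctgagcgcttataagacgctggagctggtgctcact
Adm2: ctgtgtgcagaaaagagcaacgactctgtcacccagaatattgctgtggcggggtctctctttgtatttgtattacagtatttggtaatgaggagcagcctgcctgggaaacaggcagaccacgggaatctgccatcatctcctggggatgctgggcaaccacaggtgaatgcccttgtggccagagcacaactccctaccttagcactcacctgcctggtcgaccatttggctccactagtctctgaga
Ackr3: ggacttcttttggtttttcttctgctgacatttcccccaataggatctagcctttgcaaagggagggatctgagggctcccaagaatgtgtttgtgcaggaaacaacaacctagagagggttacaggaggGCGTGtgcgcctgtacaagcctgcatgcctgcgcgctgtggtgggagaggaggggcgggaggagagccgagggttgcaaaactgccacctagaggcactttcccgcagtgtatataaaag

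Adm held GCGTG 2 times, on the minus strand at 90 to 86 and at 54 to 50 bases before the start. Ackr3 held it once, on the plus strand at 120 to 116 bases. Adm2 held no match, nor did Calcrl and Ramp1, whereas Ramp3, whose sequence is not shown, held 2. One or the other core was present in 38.6% of 32851 promoter windows of the same length (ACGTG in 16.6% and GCGTG in 28.2%), so such a match is common. The letters GATAA, the core that GATA factors bind, searched on both strands, were in none of the 6 windows and in 22.6% of all windows. Ramp2 is not in the table. A match is a description of the letters in this window only.

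The labels were checked before the members. Gata4 was higher, at 10.42 ± 0.19 in livers labelled knockout and 9.91 ± 0.05 in controls (log2 value, SD, n = 3). It passed limma, a call kept in 1 of 6 fits without 1 array (adjusted p 0.0366 to 0.144). Its feature need not lie in the deleted part, and whole liver includes cells that the Cre does not target. The labels are therefore taken as given, and each direction below rests on them. Albumin (13.3 to 13.5) and alpha-fetoprotein (13.3 to 13.5) were near the top of the scale in all 6 arrays, as fetal liver should show, while Stab2 fell by 1.30 in log2 (SE 0.20, limma adjusted p = 0.0161, a call lost without control replicate 2 or 3, at up to 0.0678). Sex was not balanced: Xist read at least 10.2 in the 3 arrays labelled knockout and in control replicate 2, and at most 3.96 in control replicates 1 and 3. Heart muscle transcripts also varied between arrays, in both groups. The mean log2 value of 6 heart genes was 7.50 in labelled knockout replicate 3, 6.76 and 8.05 in control replicates 1 and 2, and 5.69 to 5.71 in the other 3 arrays. In whole liver, fewer cells of a type and less RNA per cell cannot be told apart.

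Both peptide genes were higher in every array labelled knockout than in any control. Adm read 7.06, 6.59 and 7.14 in labelled knockout replicates 1, 2 and 3 and 6.27, 6.004 and 5.94 in control replicates 1, 2 and 3 (log2 RMA values). Its group means were 6.93 ± 0.30 and 6.07 ± 0.17 (SD, n = 3), a difference of 0.86 in log2 (SE 0.16) or 1.82-fold. Replicate 2 was the lowest of the livers labelled knockout, and still 0.33 above the highest control.

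Adm2 read 7.60, 6.78 and 7.01 in the livers labelled knockout and 5.67, 5.71 and 6.03 in the controls. The means were 7.13 ± 0.42 and 5.81 ± 0.20 (SD, n = 3), a difference of 1.33 (SE 0.21) or 2.51-fold. This was the widest difference among the 7 genes, and the gap between the groups was 0.75. Replicate 1 stood highest and replicate 2 lowest among the livers labelled knockout, whereas for Adm replicates 1 and 3 were close together.

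Ackr3, the scavenging receptor, was higher as well. It read 9.62, 9.57 and 9.81 in the livers labelled knockout against 8.81, 9.18 and 8.92 in the controls. Its means were 9.67 ± 0.13 and 8.97 ± 0.19 (SD, n = 3), a difference of 0.69 (SE 0.12) or 1.62-fold, and the groups were 0.39 apart. Control replicate 2 lay closest to the livers labelled knockout.

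**Figure D1:**
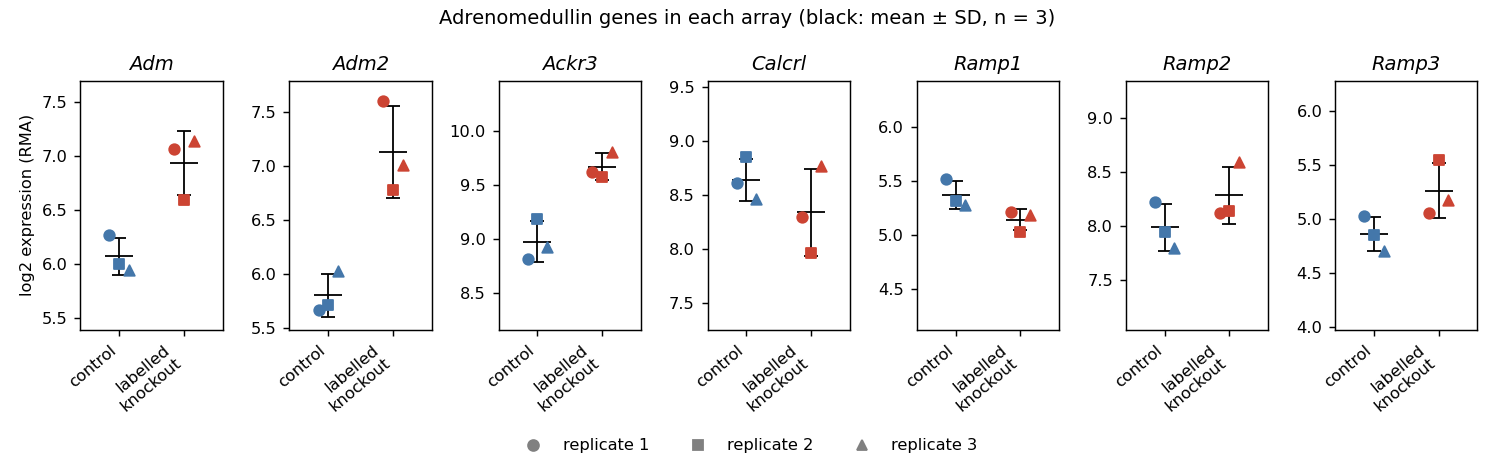
Log2 expression (RMA, vertical axis; every panel spans the same range) of the 7 genes in the 3 control arrays and the 3 arrays labelled knockout, with symbols for the replicate and black marks for mean ± SD. Adm, Adm2 and Ackr3 lie wholly higher in the livers labelled knockout, Calcrl and Ramp2 overlap, and Ramp1 and Ramp3 are separated by narrow gaps of 0.07 and 0.03.

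Calcrl, the signalling receptor, had a negative difference where those of its ligands were positive. It read 8.29, 7.96 and 8.77 in the livers labelled knockout and 8.62, 8.85 and 8.46 in the controls, and the groups overlapped. The means were 8.34 ± 0.40 and 8.64 ± 0.20 (SD, n = 3), a difference of -0.30 (SE 0.20). The 3 arrays with the highest Calcrl values, control replicates 1 and 2 and labelled knockout replicate 3, were also the 3 with the highest heart muscle mean, and the part of heart tissue in the Calcrl values was not tested. With labelled knockout replicate 3 and control replicate 2 left out together, the Calcrl difference was -0.41 (SE 0.16). That fit keeps no control with high Xist, so sex and group cannot be told apart in it.

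Among the accessory proteins, Ramp2, the partner that makes the main adrenomedullin receptor of endothelium, read 8.13, 8.14 and 8.59 against 8.23, 7.95 and 7.80. The groups overlapped, since control replicate 1 lay above 2 of the livers labelled knockout, and the difference was 0.30 (SE 0.16). Ramp3, which also makes an adrenomedullin receptor, read 5.06, 5.55 and 5.18 against 5.03, 4.85 and 4.71, a difference of 0.40 (SE 0.15). Ramp1, the partner for calcitonin gene-related peptide, read 5.21, 5.03 and 5.18 against 5.52, 5.31 and 5.28, a difference of -0.23 (SE 0.10). The groups of Ramp3 and Ramp1 did not overlap, but by gaps of only 0.03 and 0.07. Both genes were dim, with mean values at the 45.8 and 47.7 percentiles of all genes and below the array median of 5.43, and how much of either reading is background is unknown. The features of different genes use different probes, so the levels of the 3 accessory proteins were not ranked against each other.

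Of the 7 genes, 3 (Adm, Adm2 and Ackr3) passed the limma fit over all genes at an adjusted p under 0.05, all higher, where 6.36% of all genes tested were called, 3.59% higher and 2.77% lower. The groups did not overlap for 4 genes that were higher and 1 that was lower, against 13.0% and 14.3% of all genes (27.3% in either direction). Since the comparison had chosen the members, nothing further is read from these counts. The calls depended on single arrays, for these genes and over all genes. Without labelled knockout replicate 1 the fit passed 2 (Adm2 and Ackr3), without replicate 2 it passed 3, and without replicate 3 it passed 0, with 5 at an unadjusted p under 0.05. Leaving out control replicate 1 passed 1 (Adm), control replicate 2 passed 1 (Ackr3) and control replicate 3 passed 0, with 3 at an unadjusted p under 0.05. The sex term left 0 by limma, with 3 at an unadjusted p under 0.05. Over all genes the calls went from 1480 to 1395, 922 and 262 without labelled knockout replicates 1, 2 and 3 in turn, to 555, 367 and 41 when each control was left out, and to 3 under the sex term. Of the 23279 genes, 5245 had an unadjusted p under 0.05 with all 6 arrays and 4473 without labelled knockout replicate 3. The count was 4020 without control replicate 3 and 3259 under the sex term.

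All 7 differences kept their sign in the 6 fits that each left out 1 array. For all but Calcrl and Ramp2 the groups did not overlap, so no choice of arrays could reverse the sign. The differences ranged from 0.76 to 1.03 for Adm, from 1.09 to 1.50 for Adm2 and from 0.61 to 0.80 for Ackr3. Those of the receptor complex moved more in proportion, from -0.51 to -0.11 for Calcrl and from 0.15 to 0.42 for Ramp2. Against control replicate 2 alone, the one control with high Xist, all 3 livers labelled knockout were higher, by a mean of 0.93 for Adm, 1.42 for Adm2 and 0.49 for Ackr3. The fit with a sex term returns these same numbers, because control replicates 1 and 3 then inform only that term. Against control replicate 2 Calcrl was lower by 0.51 and all 3 livers labelled knockout lay below it. This array also had the highest heart muscle mean of the 6, and the part of heart tissue in that difference was not tested. Without the pair of arrays with the highest heart muscle values the peptide genes and Ackr3 differed by 0.72, 1.34 and 0.73. That pair includes control replicate 2, so no control with high Xist remains. In that fit, as in the fit without control replicate 2, sex and group cannot be told apart.

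**Figure D2:**
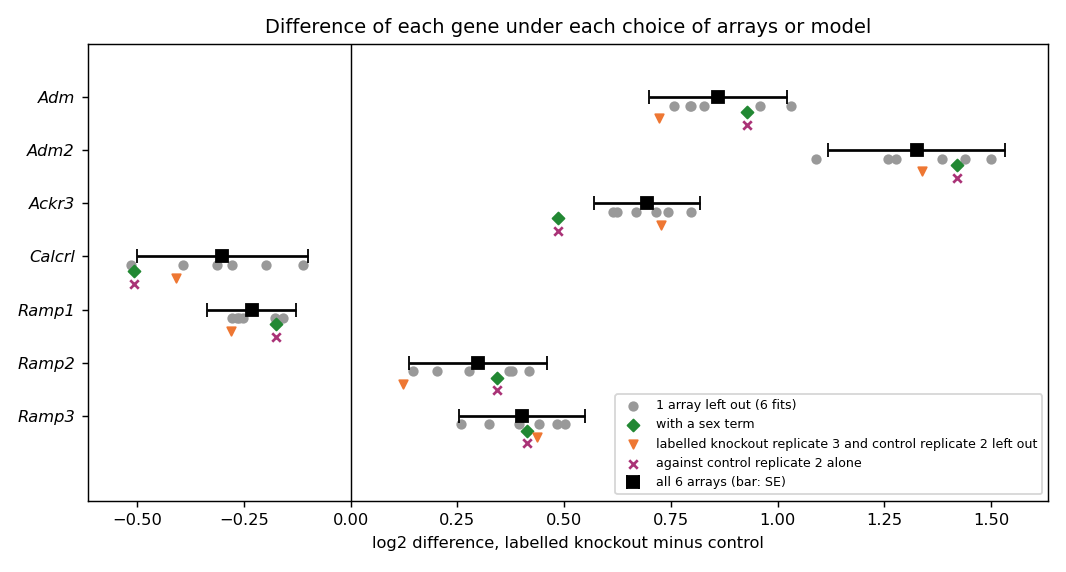
Log2 difference, labelled knockout minus control (horizontal axis), for each gene: black squares with SE bars use all 6 arrays, and the other symbols mark the alternatives named in the key. Adm, Adm2, Ackr3, Ramp2 and Ramp3 stay above 0 and Calcrl and Ramp1 below 0 under all of them. For all but Calcrl and Ramp2 this follows from groups that do not overlap. Ackr3 falls from 0.69 to 0.49 with the sex term.

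The other genes of the pathway were taken from lists fixed by function, with earlier results of these data known. Genes of these lists with no matched feature, among them Grk2, Rapgef4, Rap1a, Ednra and Calca, were not analysed here. For all tested genes the median difference was -0.01, and 5245 of 23279 had an unadjusted p under 0.05. Of 5 other genes of the calcitonin family 4 were matched to a feature, Calca, which encodes calcitonin and calcitonin gene-related peptide, being the other. Of these 4, 0 passed limma (2 at an unadjusted p under 0.05, and 0 with either a variance trend or robust eBayes), with a median difference of -0.02. The calcitonin receptor Calcr differed by 0.32 (adjusted p = 0.193), and Crcp, which helps couple the Calcrl receptor to its G protein, by -0.24 (adjusted p = 0.205). Of 14 other receptors reported to bind RAMPs, 0 passed (2 at an unadjusted p under 0.05, 0 with a variance trend or robust eBayes; median 0.09). The largest difference there was that of Vipr2, a receptor for vasoactive intestinal peptide, at 0.61 (SE 0.18, adjusted p = 0.0899), and the parathyroid hormone receptor Pth1r differed by 0.28 (adjusted p = 0.344).

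Of 5 genes for maturation, binding and clearance of the peptide, all 5 had a positive difference (median 0.44) and 1 passed. Mmp2, a matrix metalloprotease that cleaves adrenomedullin, read 9.65, 9.65 and 9.65 in the livers labelled knockout and 8.95, 9.09 and 9.01 in the controls, so it rose by 0.63 (SE 0.09, adjusted p = 0.0128). Of the 6 fits without 1 array, the one without control replicate 3 lost Mmp2 (adjusted p = 0.0607), as did the fit with a sex term (adjusted p = 0.176). Pam, the enzyme that adds the C-terminal amide the peptide needs for activity, differed by 0.24 (adjusted p = 0.475), and its groups overlapped. The peptidase gene Mme differed by 0.38 (adjusted p = 0.247), the proprotein convertase gene Furin by 0.44 (adjusted p = 0.148) and the carboxypeptidase gene Cpe by 0.94 (adjusted p = 0.127). Cpe varied most, from 6.67 to 7.97 among the livers labelled knockout.

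The chemokine side of Ackr3 was measured through 7 genes, of which 1 was higher and 0 lower by limma (3 at an unadjusted p under 0.05; median -0.10). The chemokine Cxcl12 differed by 0.24 (adjusted p = 0.241) and its signalling receptor Cxcr4 by 0.05 (adjusted p = 0.877). Grk5, a kinase that phosphorylates activated receptors, rose by 0.59 (SE 0.12, adjusted p = 0.0309). The arrestins, which carry phosphorylated receptors into the cell and through which ACKR3 acts, had negative differences: Arrb2 of -0.53 (adjusted p = 0.0561) and Arrb1 of -0.36 (adjusted p = 0.0975), with no overlap between groups for either gene. Grk5 no longer passed when labelled knockout replicate 2 (adjusted p = 0.0538) or 3 (0.0902) or control replicate 1 (0.0637), 2 (0.0956) or 3 (0.120) was left out. With a variance trend 3 of the 7 passed.

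Downstream of the receptor, 2 of 26 genes of cAMP signalling passed, both lower, with a median of 0.05. Prkar2b, a regulatory subunit of protein kinase A, fell by 0.50 (SE 0.11, adjusted p = 0.0351), and Rap1b, a small GTPase that strengthens endothelial junctions when cAMP rises, fell by 0.45 (SE 0.10, adjusted p = 0.0366). Which cells of the whole liver lie behind these 2 differences was not tested. The cyclase gene Adcy7 (-0.43, adjusted p = 0.0509), the catalytic subunit Prkaca (0.41, adjusted p = 0.0550) and the cyclase genes Adcy3 (0.42, adjusted p = 0.0618) and Adcy2 (0.46, adjusted p = 0.0754) did not pass. Gnas, which encodes the G protein alpha subunit, differed by 0.13 (adjusted p = 0.409). The Prkar2b and Rap1b calls held only without labelled knockout replicate 1 (adjusted p = 0.0238 and 0.0321). Without labelled knockout replicates 2 and 3 and control replicates 1, 2 and 3, the adjusted p of Prkar2b was 0.0734, 0.107, 0.0936, 0.0927 and 0.127, and that of Rap1b 0.0748, 0.112, 0.104, 0.0972 and 0.120. Of 6 genes of nitric oxide and cGMP signalling, 0 passed (1 at an unadjusted p under 0.05, 0 with a variance trend or robust eBayes; median 0.14). The endothelial nitric oxide synthase Nos3 differed by -0.10 (adjusted p = 0.721), and the cyclase subunit Gucy1a1 by 0.29 (adjusted p = 0.120).

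**Figure D3:**
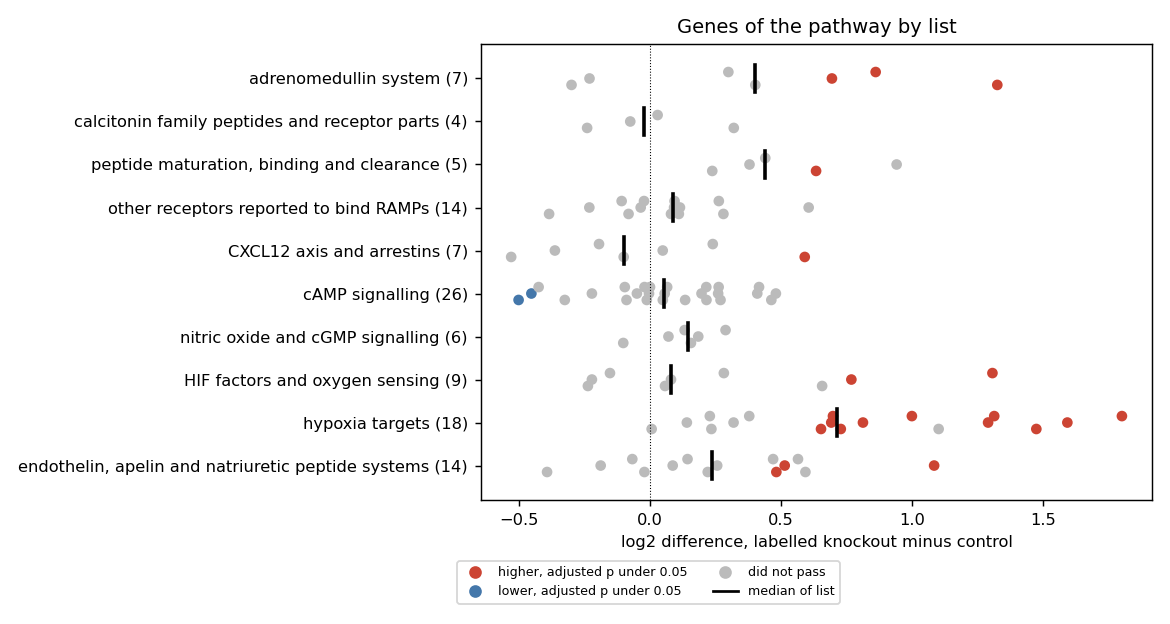
Log2 difference, labelled knockout minus control (horizontal axis), of each gene in the adrenomedullin system and the 9 pathway lists, with the number of measured genes in brackets. Colour marks genes past an adjusted p of 0.05 and the black bar the median of a list. Hypoxia targets have the highest median, 0.71, and both cAMP genes past the threshold are lower.

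Hypoxia targets were the list in which most genes passed. Of 18 such genes, 11 rose, 0 fell and 7 did not pass, all 18 had a positive difference, and the median was 0.71. Vegfa, the main growth factor of endothelium, read 10.59, 10.39 and 10.48 in the livers labelled knockout and 9.24, 9.18 and 9.16 in the controls (1.29, SE 0.09, adjusted p = 0.00525). Ddit4 rose by 1.80, Vldlr by 1.59, Stc2 by 1.47 and Ankrd37 by 1.31. P4ha2 and P4ha1, prolyl hydroxylases of collagen, rose by 1.00 and 0.73, Ndrg1 by 0.81, the carbonic anhydrase Car12 by 0.70, the histone demethylase Kdm3a by 0.69 and the glucose transporter Slc2a1 by 0.65. The mitophagy gene Bnip3 (1.10, adjusted p = 0.0509) and Mxi1 (0.32, adjusted p = 0.0656) did not pass. Nor did Ldha (0.23, adjusted p = 0.182), Higd1a (0.38, adjusted p = 0.199) and Car9 (0.23, adjusted p = 0.248). Pdk1 (0.14, adjusted p = 0.502) and Pgk1 (0.006, adjusted p = 0.985) changed least. The groups overlapped for Higd1a, Pdk1 and Pgk1. Leaving out labelled knockout replicates 1, 2 and 3 in turn gave 9, 10 and 6 calls, and leaving out each control gave 8, 8 and 2. Vegfa and Ddit4 passed in all 6 of these fits and were the 2 that passed without control replicate 3. Ankrd37, Stc2 and Vldlr were also lost without labelled knockout replicate 3. The least stable were Ndrg1 (kept in 2 of 6 fits, adjusted p up to 0.0830), Slc2a1 (kept in 1, up to 0.0877) and Car12 (kept in 1, up to 0.146), which were lost without each control in turn. The fit with a sex term passed 0 by limma, with 12 genes at an unadjusted p under 0.05.

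Of 9 genes of HIF and oxygen sensing, 2 rose and 0 fell (median 0.08), and both were prolyl hydroxylases that mark HIF for breakdown and are HIF targets too. Egln3 rose by 1.31 (SE 0.20, adjusted p = 0.0161) and Egln1 by 0.77 (SE 0.12, adjusted p = 0.0160). Without labelled knockout replicate 3 the adjusted p was 0.0580 for Egln3 and 0.0558 for Egln1, without control replicate 3 it was 0.0735 and 0.0690, and without control replicate 2 it was 0.0530 for Egln3. Hif1a differed by 0.06 (adjusted p = 0.870), and Epas1, the HIF-2 alpha gene that is prominent in endothelium, by 0.66 (SE 0.19, adjusted p = 0.0792) with no overlap between the groups.

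Within the group labelled knockout, these genes and the peptides were often lowest in the same array. The highest array differed, being replicate 3 for Adm and Ackr3 and replicate 1 for Adm2. Replicate 2 was the lowest of the 3 in 15 of 18 hypoxia targets, in 5 of the 7 members (Adm, Adm2, Ackr3, Calcrl and Ramp1) and in 35.9% of all genes. It was the highest for Ramp3. Replicate 2 was also lowest in 11 of 14 shared endothelial, 8 of 9 hepatoblast, 8 of 11 stellate and mesenchymal and 7 of 10 sinusoidal markers. It was lowest in 3 of 9 erythroid and 1 of 7 megakaryocyte markers. The position of this array was not used for any test.

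**Figure D4:**
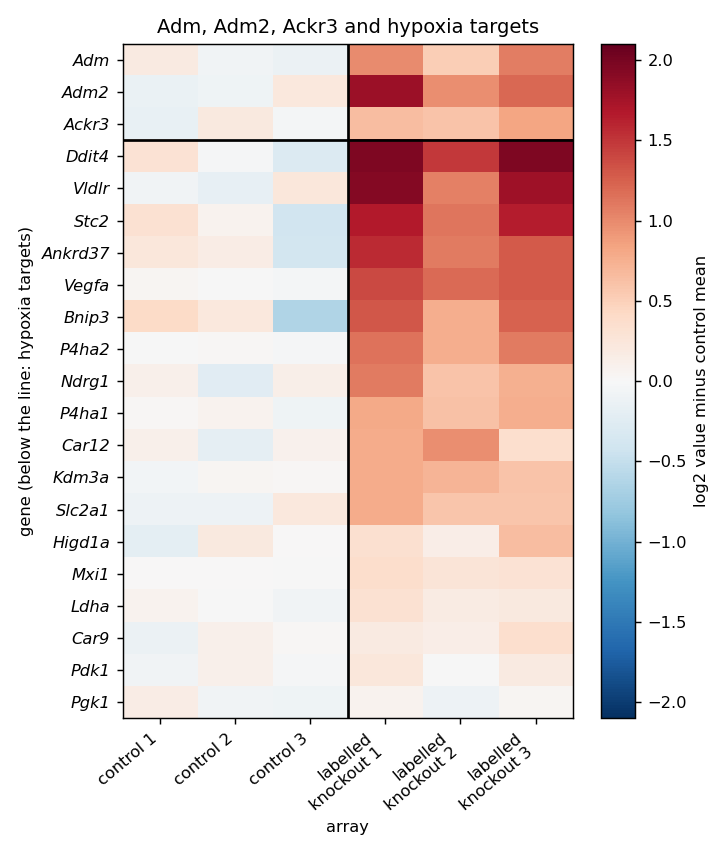
Log2 value minus the control mean of each gene (colour) in the 6 arrays (columns), for Adm, Adm2 and Ackr3 above the black line and the 18 hypoxia targets below it, sorted by difference. Nearly all genes are darker red in the arrays labelled knockout, and replicate 2 is the palest of the 3 in 15 of the 18 targets.

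Other vascular peptide systems were set beside adrenomedullin. Of 14 genes of the endothelin, apelin and natriuretic peptide systems, 3 rose and 0 fell (median 0.24). Apelin, Apln, another peptide ligand of a vascular G protein-coupled receptor, read 5.57, 6.48 and 5.83 against 5.06, 4.85 and 4.71, so it rose by 1.08 (SE 0.22, adjusted p = 0.0315). Its receptor Aplnr differed by 0.59 (adjusted p = 0.0624), with no overlap between the groups, whereas those of Calcrl did overlap. Whether the 2 receptors differed from each other was not tested. Ece1, which makes active endothelin, rose by 0.51 (SE 0.11, adjusted p = 0.0356), and Npr2, the receptor of C-type natriuretic peptide, by 0.48 (SE 0.10, adjusted p = 0.0360). The Apln call was kept in 2 of the 6 fits without 1 array, those without labelled knockout replicates 1 and 2, and had an adjusted p of 0.0836 when labelled knockout replicate 3 was left out and of 0.0652, 0.0947 and 0.122 when control replicate 1, 2 or 3 was. Ece1 was kept in 1 (without labelled knockout replicate 2; up to an adjusted p = 0.133 without control replicate 3) and Npr2 in 0 (0.0578 to 0.120).

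The neighbours of the members in the genome were examined next, as the next tested protein-coding gene on each side in the RefSeq gene table (GRCm38.p6), used for order only. Of 14 such genes, 1 was higher and 1 lower, and both flank Adm. Sbf2, the neighbour before Adm, rose by 0.70 (SE 0.11, adjusted p = 0.0173), and Ampd3, an AMP deaminase of red cells and the neighbour after it, fell by 1.28 (SE 0.17, adjusted p = 0.0118). Sbf2 no longer passed when labelled knockout replicate 3 (adjusted p = 0.0650) or control replicate 2 (0.0551) or 3 (0.0721) was left out, and Ampd3 when control replicate 3 was (0.0583). The neighbours of Adm2, Ackr3, Calcrl and the RAMP genes did not pass. Closest to the threshold was Tfpi, an inhibitor of coagulation next to Calcrl, at 0.40 (SE 0.11, adjusted p = 0.0717).

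For each member whose groups did not overlap, the genes with the most similar profile were found by the root-mean-square difference of log2 values, centred on each gene's mean, over the 6 arrays. Those nearest to Adm were the amyloid precursor-like gene Aplp1 (0.0634), the endothelial transcription factor Sox18 (0.0743) and the carboxypeptidase gene Cpm (0.0826). Nearest to Adm2 were the microRNA genes Mir323 (0.117) and Mir329 (0.191) and the nuclear receptor gene Rora (0.189), all at larger distances. Ackr3 was closest to the protocadherin Pcdhga10 (0.0531), to Fndc10 (0.0612) and to the growth factor pleiotrophin, Ptn (0.0739). The neighbours of Ramp3 (Shroom3, Slc4a3 and Map10, 0.0157 to 0.0262) and of Ramp1 (Pfdn6, Cybc1 and Nudc, 0.0219 to 0.0283) were closer still, and none of these 6 passed the gene test. With 2 groups of 3 arrays, many genes that differ by a similar amount have a similar profile.

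Marker genes of the cells that could hold these transcripts also differed between the groups. Of 14 shared endothelial markers, 5 rose and 0 fell, with Pecam1 at 0.63 (SE 0.09, adjusted p = 0.0141) and Emcn at 1.00 (SE 0.15, adjusted p = 0.0151). The 9 that did not pass include Fli1 at -0.18 (adjusted p = 0.562) and Tek at -0.07 (adjusted p = 0.921). Those were the only markers of this list with a negative difference. The mean log2 value of the list ran from 8.38 to 8.56 in controls and from 8.63 to 8.93 in livers labelled knockout. Of 10 sinusoidal markers, 6 fell and 0 rose, and the list mean was 7.26 to 7.37 in controls against 6.46 to 6.77. The 4 that did not pass include Stab1 at -0.05 (adjusted p = 0.854) and Flt4, the 1 marker with a positive difference, at 0.12. Gpr182, a receptor of sinusoids, fell by 1.18 (SE 0.12, adjusted p = 0.00813). Of 12 continuous capillary markers, 2 rose (Cav1 by 1.43 and Esm1 by 0.86), 1 fell (Vwf) and 9 did not pass. The Vwf call was kept in 1 of 6 fits without 1 array, that without labelled knockout replicate 1. The differences of the list ran from -0.78 to 1.43, with a median of 0.09. The list mean was 6.52 to 6.63 in controls against 6.72 to 6.86 in livers labelled knockout.

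Of 11 stellate and mesenchymal markers, 5 rose and 0 fell (mean 9.09 to 9.31 against 9.70 to 9.90), among them Rgs5 by 1.69 and Pdgfrb by 0.56. Mesothelial markers, 3 of 8 of which rose, had means of 7.29 to 7.40 against 7.67 to 7.87. Macrophage markers fell in 8 of 10 cases (6.99 to 7.30 against 5.90 to 6.28), erythroid markers in 3 of 9 (6 with a variance trend; 10.0 to 10.6 against 9.49 to 9.62) and megakaryocyte markers in 3 of 7 (8.89 to 9.22 against 7.87 to 8.75). Among 9 hepatoblast markers 0 passed limma (3 at an unadjusted p under 0.05, 1 with a variance trend, 0 with robust eBayes), and among 6 heart muscle markers 0 passed (1 at an unadjusted p under 0.05, 0 with a variance trend or robust eBayes). The part of these marker shifts in the differences of Adm, Adm2, Ackr3 and the genes of the pathway lists was not tested. Of the calls named in this and the preceding paragraph, those of Gpr182, Cav1 and Rgs5 held in all 6 fits without 1 array. With a sex term Rgs5 passed limma (adjusted p = 0.0484), and Gpr182 (0.154) and Cav1 (0.114) did not. Those of Pecam1, Emcn, Esm1 and Pdgfrb were lost without control replicate 3 (adjusted p = 0.0691, 0.0699, 0.0536 and 0.0766), those of Pecam1, Emcn and Pdgfrb without control replicate 2 (0.0507, 0.0522 and 0.0558), those of Pecam1 and Pdgfrb without labelled knockout replicate 3 (0.0533 and 0.0683), and that of Pdgfrb without control replicate 1 (0.0628).

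**Figure D5:**
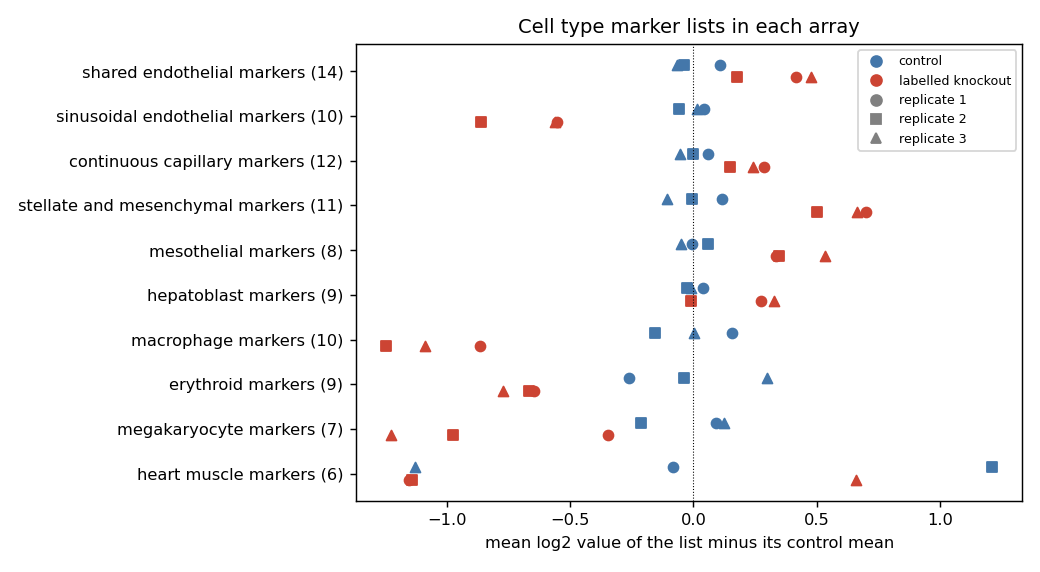
Mean log2 value of each cell type marker list minus its control mean (horizontal axis), one symbol per array, with the number of measured genes in brackets. Arrays labelled knockout lie to the right of all controls for shared endothelial, continuous capillary, stellate and mesothelial markers and to the left for sinusoidal, macrophage, erythroid and megakaryocyte markers, while heart muscle markers are mixed.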

How the data were processed

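Total RNA of fetal liver was measured on 6 Affymetrix arrays (3 labelled knockout, 3 control). The authors deposited values made with RMA, per the submitters' processing notes. RMA subtracts background, matches the arrays' distributions by quantiles and summarises probes. That the deposited values are log2 was read from their range, 2.55 to 13.9. The RMA version, the chip definition and the build were not found in the labels. Sorted values were identical in all arrays, so a change in total RNA cannot be seen, and array number limits the precision.

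Of 24479 features, 23281 were named through the platform annotation and RefSeq (GRCm38.p6), leaving 23279 genes, the brighter feature being kept for a shared name. Limma 3.58.1 in R 4.3.3 (lmFit, eBayes) tested labelled knockout minus control on the 6 arrays with no covariate and no filter. Benjamini-Hochberg adjustment covered all genes, and the threshold was 0.05. The fit was tested on simulated data. Members and lists were chosen with earlier results of these data known. Genes named are the members, all genes of pathway lists of up to 9 or those past the threshold with the next 4 by p in longer ones, up to 4 markers per cell type, flanking genes and the 3 nearest profiles (predicted genes and clones passed over). All hypoxia targets are named.

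Alternatives were a variance trend, robust eBayes, a new normalisation, leaving out the dimmest 25% or 50% of genes, a replicate block, a sex term, control replicate 2 alone, each array left out in turn and, added after seeing the data, leaving out labelled knockout replicate 3 with control replicate 2.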

Additional observations from a re-analysis of the deposited data

How the results depend on the processing

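Differences of all 7 members kept their sign under every alternative in which the gene was tested. Ramp1 and Ramp3 were not among the genes kept when the dimmest 50% were left out. For all but Calcrl and Ramp2 the groups did not overlap, so leaving out arrays could not reverse the sign. The variance trend, robust eBayes, leaving out dim genes and the replicate block leave the difference of each gene still tested unchanged. The difference of Ackr3 moved by more than the replicate SD with a sex term and against control replicate 2 alone (0.49 in both, by construction the same value). Leaving out 1 array gave -0.51 to -0.11 for Calcrl, -0.28 to -0.16 for Ramp1, 0.15 to 0.42 for Ramp2 and 0.26 to 0.50 for Ramp3, beside 0.76 to 1.03 for Adm, 1.09 to 1.50 for Adm2 and 0.61 to 0.80 for Ackr3. Of all genes, 1480 were called, 3 with a sex term, 17 without the pair of arrays with the highest heart muscle values, and 41 to 1395 without 1 array. With the sex term and without that pair, the count was 0 for the members, for peptide maturation, for the CXCL12 axis, for cAMP signalling, for HIF factors, for hypoxia targets, for the endothelin and apelin list and for flanking genes. Without 1 array it was 0 to 3 for the members, 0 to 2 for peptide maturation, the CXCL12 axis and flanking genes, 0 to 3 for cAMP signalling, HIF factors and the endothelin and apelin list, and 2 to 10 for hypoxia targets. Those fits rest on 5 or 4 arrays, so calls can be lost where the difference is as large. The CXCL12 axis had 3 calls with a variance trend and 2 without the dimmest 25% or 50% of genes. Calls in cAMP signalling numbered 4 with a trend and 5 without the dimmest 50%. Why was not tested. Cxcr4 ran from -0.0632 (without labelled knockout replicate 2) to 0.118 when 1 array was left out, and turned to -0.0042 without control replicate 2. Nos3 turned to 0.14 with the sex term. Hif1a turned to -0.15 with it, ran from -0.0501 (without control replicate 3) to 0.159 when 1 array was left out, and turned to -0.0182 without labelled knockout replicate 3.

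With the replicate number as a block, 686 genes were called, 2 of the members (Adm and Adm2), and 0 in the CXCL12, cAMP and endothelin and apelin lists. The numbers did not pair the arrays: deviations of same-numbered arrays from their group means correlated at -0.05, -0.01 and -0.08 over genes. Robust eBayes and the new normalisation left every list count within 1.5 times. Dimness limits Ramp1 and Ramp3, for which no signal over background was used.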
